A study of Mus musculus with 6 samples.

Results

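The genes described here are 10 genes by which mast cells are recognised: the proteases Mcpt1, Mcpt2, Mcpt4, Cma1, Cpa3 and Tpsb2, the receptor genes Kit, Ms4a2 and Fcer1a, and the histamine-forming enzyme gene Hdc. They were chosen by name, with earlier results of these data known. Every probe set (a group of short probes for the same transcript) that the platform annotation assigns to 1 of these symbols was taken, which gave 14 of the 45037 probe sets on the array that are not array controls. The colon was measured on 6 Affymetrix mouse arrays, 3 labelled control and 3 labelled HDAC2 KO, with 1 sample on each. In the HDAC2 KO mice a floxed Hdac2, the gene of the histone deacetylase HDAC2, was recombined by a villin-Cre transgene, which is active in the intestinal epithelium. Both groups had a background mixed from CD-1, 129 and C57BL/6, were fed a normal diet and were untreated, while the age of the mice and the alleles of the controls are not given in the sources used here. The source labels speak of epithelium and the extraction protocol of the colon, and the description of the second group names HDAC1/2 where its title and genotype name HDAC2 alone. Whether the replicates of a group were separate animals rests on the numbers in the labels, and otherwise p-values measure only the spread between these samples.

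Mast cells are tissue-resident granulated leukocytes that arise from bone marrow progenitors and depend on signalling through the receptor KIT. In mice, those of the gut mucosa lie within and beneath the epithelium and store the chymases MCPT1 and MCPT2, whereas those of connective tissue, which in the gut include the cells of the submucosa, store the chymases MCPT4 and CMA1, the tryptase TPSB2 and carboxypeptidase A3 in granules rich in heparin. Crosslinking of IgE bound to the high-affinity receptor, of which FCER1A is the alpha chain and MS4A2 the beta chain, makes the cells release these granules together with histamine, which HDC forms from histidine.

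Of the chymase genes, Cma1, Mcpt1, Mcpt2 and Mcpt4 lie in 1 group on chromosome 14 in the RefSeq annotation, with Cma2 and Mcpt9 among them, after which Mcpt8, Ctsg and the granzyme genes Gzme, Gzmd, Gzmg, Gzmn, Gzmf, Gzmc and Gzmb follow. A promoter window was given for 8 of the 10 genes, the others being Mcpt2 and Tpsb2. The 250 bases before the start (RefSeq, GRCm38.p6) are shown for Mcpt1, Cpa3 and Fcer1a, whose signals fell, and for Mcpt4, a related chymase gene of the same group. They are read 5′ to 3′ on the gene's strand, with GATAA or its reverse complement, the core recognised by GATA factors, in capitals.
Mcpt1, chr14:56017714-56017963, plus strand: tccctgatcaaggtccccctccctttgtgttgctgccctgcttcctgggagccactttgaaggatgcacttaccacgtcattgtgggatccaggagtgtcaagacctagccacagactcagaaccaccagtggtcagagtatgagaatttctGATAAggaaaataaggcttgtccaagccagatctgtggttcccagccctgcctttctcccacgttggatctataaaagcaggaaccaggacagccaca
Mcpt4, chr14:56062311-56062560, minus strand: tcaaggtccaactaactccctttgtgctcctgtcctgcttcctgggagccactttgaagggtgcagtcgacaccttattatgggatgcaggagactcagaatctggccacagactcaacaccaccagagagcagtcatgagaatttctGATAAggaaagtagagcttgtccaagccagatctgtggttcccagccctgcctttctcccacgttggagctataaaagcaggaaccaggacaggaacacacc
Cpa3, chr3:20242182-20242431, minus strand: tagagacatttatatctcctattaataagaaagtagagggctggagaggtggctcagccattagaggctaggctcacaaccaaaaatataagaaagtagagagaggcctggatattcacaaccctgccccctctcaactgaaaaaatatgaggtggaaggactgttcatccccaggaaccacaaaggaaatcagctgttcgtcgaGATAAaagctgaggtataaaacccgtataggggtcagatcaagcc
Fcer1a, chr1:173227230-173227479, minus strand: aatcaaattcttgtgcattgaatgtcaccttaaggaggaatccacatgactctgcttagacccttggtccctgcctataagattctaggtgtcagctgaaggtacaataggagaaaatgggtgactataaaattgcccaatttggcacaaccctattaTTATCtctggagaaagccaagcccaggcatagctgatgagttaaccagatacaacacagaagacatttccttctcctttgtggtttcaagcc
In a global alignment, the windows of Mcpt1 and Mcpt4 were identical at 209 of 250 bases (83.6%), against 132 of 250 (52.8%) for Mcpt1 and Cma1. Mcpt1 and the receptor gene Ms4a2 reached the same 132 of 250 (52.8%). Each of the 4 windows shown held 1 GATAA match on either strand, starting 98 bases before the start in Mcpt1, 102 in Mcpt4, 45 in Cpa3 and 92 in Fcer1a. Cma1 held 1 such match and Ms4a2 held 3, while Kit and Hdc held 0, and 22.6% of all 32851 promoter windows of this length held at least 1. The E-box CANNTG was found in the windows of Cma1, Cpa3, Fcer1a and Hdc and in 66.2% of all windows. Its form CATGTG, which the mast cell factor MITF can bind, was found in that of Fcer1a alone among the 8 genes and in 12.3% of all windows. These matches describe letters in the windows.

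The targeted gene read lower without passing the test. The Hdac2 probe set of highest signal (1445684_s_at) had log2 signals of 10.40, 10.37 and 10.43 in control against 10.21, 10.12 and 10.24 in HDAC2 KO, 13.7% less signal, with an adjusted p of 0.0768 over all probe sets (limma). With 1 probe set per gene and a filter on signal it did (adjusted p = 0.00893). Its suffix _s_at marks probe sets that can bind more than 1 transcript. The probe set 1449080_at was 13.99% lower without passing (adjusted p = 0.253), and passed in none of 13 alternative settings (adjusted p 0.0872 to 0.502). The low-signal probe set 1439704_at differed by -0.08 (SE 0.15, adjusted p = 0.867), and whether any Hdac2 probe set lies in the deleted part was not analysed here. All 6 arrays carried both Xist, the RNA of the inactive X chromosome, at 11.52 to 12.04 and the Y-linked Eif2s3y at 7.48 to 8.32. Xist was 1.40-fold lower (adjusted p = 0.00137) and Eif2s3y 1.53-fold higher (adjusted p = 0.0200) in HDAC2 KO, so the balance of female and male RNA moved with the group, and its part in the results below was not tested. The sample titles number replicates, and the sources used here do not say whether an array held RNA of more than 1 mouse. Every array carried both Xist and Eif2s3y, and whether pools of mice gave this was not tested. With pools, the SDs, n and p-values would describe pools. In whole-tissue RNA, fewer cells of a type and less RNA per cell cannot be told apart.

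The mucosal chymase genes showed the largest falls of the 10 genes. Mcpt1 (1422352_at) read 8.87, 8.83 and 8.79 in control and 7.03, 6.77 and 6.88 in HDAC2 KO. The lowest control array thus lay well above the highest HDAC2 KO array, and the difference of -1.94 (SE 0.072, 95% interval -2.10 to -1.77, limma adjusted p = 1.61e-05) made the signal 3.83-fold lower. Mcpt2 (1449989_at), the gene of a chymase with little proteolytic activity, read 9.11, 9.20 and 8.96 in control and 7.32, 7.39 and 7.46 in HDAC2 KO. Again the groups did not overlap, with a difference of -1.70 (SE 0.074, 95% interval -1.87 to -1.53, limma adjusted p = 3.01e-05), 3.25-fold lower. A difference is called here at an adjusted p under 0.05 over all 45037 probe sets, of which 1712, or 3.8%, were called, 2.08% lower and 1.72% higher. That total was 929 in a fit that blocks on the replicate number, and 779 to 1115 when any array except HDAC2 KO replicate 2 was left out. A call lower with a fold of at least 2 was made for 0.211% of probe sets. Ranked by fall among the 18193 genes, each by its probe set of highest mean, Mcpt1 was 7th and Mcpt2 13th. The within-array difference Mcpt1 minus Mcpt2 was -0.24, -0.37 and -0.17 in control and -0.29, -0.62 and -0.58 in HDAC2 KO. The groups overlapped in replicate 1 of HDAC2 KO, and the two-sided exact permutation p was 0.2, where the smallest possible is 0.1.

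**Figure D1:**
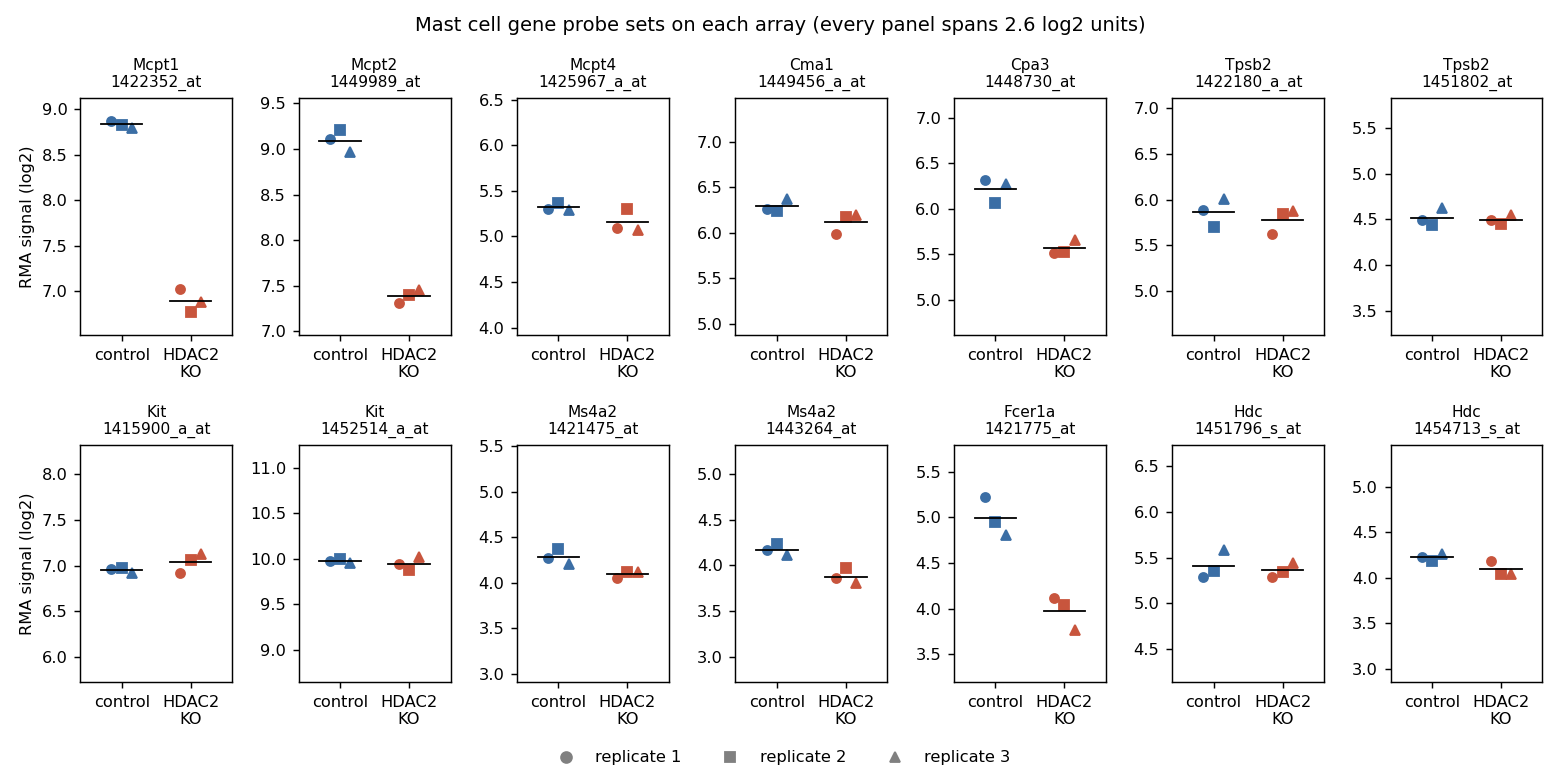
RMA signal (log2, vertical axes, each spanning 2.6 units) of the 14 mast cell gene probe sets on the 3 control arrays (blue) and the 3 HDAC2 KO arrays (red), with symbols for the replicate number and a bar at each group mean. For Mcpt1, Mcpt2, Cpa3 and Fcer1a all HDAC2 KO arrays sit well below all control arrays, whereas the groups overlap for both probe sets of Kit, Tpsb2 and Hdc.

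Of the proteases typical of connective-tissue mast cells, only Cpa3 was called. Cpa3 (1448730_at), whose product trims peptides from their carboxyl end, read 6.32, 6.07 and 6.27 in control and 5.51, 5.53 and 5.66 in HDAC2 KO. The groups did not overlap, and the signal was 1.57-fold lower (difference -0.66, SE 0.079, 95% interval -0.84 to -0.47, limma adjusted p = 0.00487). Cma1 (1449456_a_at), the gene of a mouse chymase also known as MCPT5, read 6.26, 6.24 and 6.37 in control and 5.99, 6.17 and 6.19 in HDAC2 KO. Every HDAC2 KO array was below every control array, which held for 11.3% of all probe sets, but the difference of -0.17 (SE 0.071, 95% interval -0.34 to -0.0076) was not called (adjusted p = 0.283). Mcpt4 (1425967_a_at), a chymase gene whose promoter window resembles that of Mcpt1, read 5.30, 5.36 and 5.30 in control and 5.09, 5.30 and 5.07 in HDAC2 KO. Replicate 2 of HDAC2 KO fell among the controls, and the difference of -0.16 (SE 0.071, 95% interval -0.33 to 0.0030) was not called (adjusted p = 0.315). The tryptase gene Tpsb2 (1422180_a_at) read 5.88, 5.70 and 6.00 in control and 5.63, 5.84 and 5.88 in HDAC2 KO, overlapping groups with a difference of -0.08 (SE 0.096, 95% interval -0.31 to 0.14, adjusted p = 0.754). Its lower probe set (1451802_at) differed by -0.02 (SE 0.063, adjusted p = 0.912).

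The mucosal genes were also set against the connective-tissue genes within each array. For each of the 8 pairs of a mucosal and a connective-tissue gene, the signal of the latter was subtracted from that of the former within each array. Mcpt1 minus Mcpt4 was 3.57, 3.47 and 3.49 in control and 1.93, 1.47 and 1.81 in HDAC2 KO, a change of -1.77. Mcpt2 minus Mcpt4 changed by -1.54, from 3.77 ± 0.092 (SD, n = 3) to 2.23 ± 0.15. The control means of Mcpt4 (5.32), Cma1 (6.29), Cpa3 (6.22) and Tpsb2 (5.86) lay below 6.62, the 90th percentile of the genes of other tissues described further on, where RMA compresses differences. Falls of these 4 genes can therefore be understated, and the pairs largely restate the falls of Mcpt1 and Mcpt2. The pairs with Cma1 changed by -1.76 for Mcpt1 and -1.53 for Mcpt2, and those with Tpsb2 by -1.85 and -1.62. Pairs with Cpa3, the 1 called connective-tissue gene, changed least, by -1.28 for Mcpt1 and -1.05 for Mcpt2. In all 8 pairs the groups did not overlap and the exact two-sided permutation p was 0.1 (0.1 after Benjamini-Hochberg adjustment over the 8), the smallest this test can give with 3 against 3 arrays. Within-array differences do not rank the levels of genes.

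**Figure D2:**
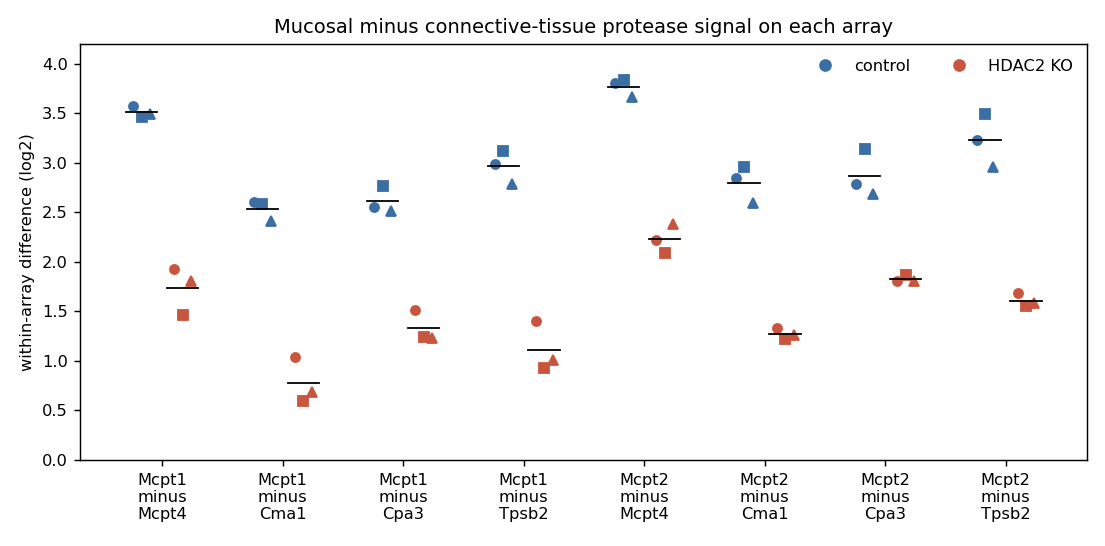
Within-array difference (log2, vertical axis) between a mucosal chymase gene, Mcpt1 or Mcpt2, and each of the 4 connective-tissue protease genes, for 3 control (blue) and 3 HDAC2 KO arrays (red), with bars at the group means and a symbol for each replicate number as circle (1), square (2) and triangle (3). In each of the 8 pairs all HDAC2 KO arrays lie below all control arrays, the smallest change being -1.05 for Mcpt2 minus Cpa3.

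The receptor genes split. Fcer1a (1421775_at) read 5.22, 4.95 and 4.81 in control and 4.11, 4.04 and 3.77 in HDAC2 KO. The groups did not overlap, and the signal was 2.03-fold lower (difference -1.02, SE 0.12, 95% interval -1.31 to -0.73, limma adjusted p = 0.00493). Its mean signals of 4.99 in control and 3.97 in HDAC2 KO lay in the range of the genes of other tissues (median 4.64), where RMA compresses differences. Ms4a2, the gene of the beta chain of the same receptor, has a pair of probe sets of low signal. The probe set 1443264_at read 4.16, 4.23 and 4.11 in control and 3.86, 3.97 and 3.81 in HDAC2 KO and was called lower, by 1.22-fold (difference -0.29, SE 0.061, limma adjusted p = 0.0455). The probe set 1421475_at, at 4.27, 4.37 and 4.21 against 4.05, 4.12 and 4.12, also did not overlap but was not called (difference -0.19, SE 0.059, adjusted p = 0.163). Leaving out any array except HDAC2 KO replicate 2 ended the call of Ms4a2 (adjusted p 0.0948 to 0.169), as did the replicate number as a block (0.0601). The gamma chain gene Fcer1g, which other Fc receptors share, was 7.79 ± 0.069 (SD, n = 3) in control and 7.60 ± 0.043 in HDAC2 KO (difference -0.19, SE 0.055, adjusted p = 0.135).

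Kit was not called. Its probe set of higher signal (1452514_a_at) read 9.97, 9.997 and 9.95 in control and 9.94, 9.87 and 10.02 in HDAC2 KO. These values overlap and differ by -0.03 (SE 0.054, 95% interval -0.15 to 0.099, limma adjusted p = 0.870). The other (1415900_a_at) read 6.97, 6.98 and 6.92 against 6.92, 7.06 and 7.13, a difference of 0.08 (SE 0.063, 95% interval -0.066 to 0.23, adjusted p = 0.603). In the gut wall Kit also marks interstitial cells of Cajal, the pacemaker cells of the muscle layer. Of 5 marker genes of these cells 1 was called lower, where 2.65% of all genes were. This gene, Prkcq (difference -0.38, adjusted p = 0.0225), is also expressed by T cells. Its call was lost without control replicate 1, 2 or 3 or HDAC2 KO replicate 1 (adjusted p up to 0.0898). At an unadjusted p under 0.05, 3 of the 5 marker genes were lower and 0 higher, against 8.1% and 8.28% of all probe sets. Among them Thbs4 changed by -0.21 (SE 0.048, adjusted p = 0.0593). The summed signal of these 5 was 13.54 to 13.59 in control and 13.41 to 13.45 in HDAC2 KO, and their calcium-activated chloride channel gene Ano1 changed by -0.11 (SE 0.044, adjusted p = 0.274). How much of the Kit signal came from either cell type was not tested.

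Hdc had a pair of probe sets, neither of them called. The probe set 1451796_s_at read 5.28, 5.36 and 5.59 in control and 5.29, 5.35 and 5.44 in HDAC2 KO, differing by -0.05 (SE 0.085, 95% interval -0.25 to 0.15, limma adjusted p = 0.844). The probe set 1454713_s_at read 4.23, 4.18 and 4.26 against 4.19, 4.05 and 4.05, with a difference of -0.13 (SE 0.058, adjusted p = 0.318). In each, at least 1 HDAC2 KO array lay within the control range. Probe sets of this type can bind more than 1 transcript.

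**Figure D3:**
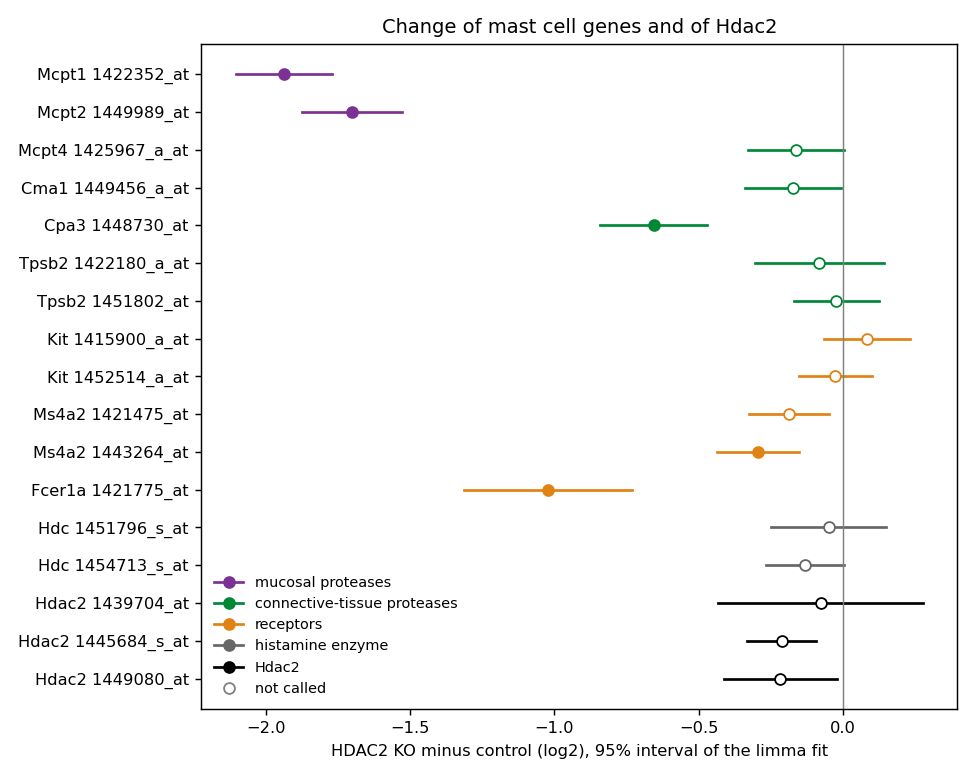
Difference HDAC2 KO minus control (log2, horizontal axis) with the 95% interval of the limma fit for each of the 14 mast cell gene probe sets and the 3 of Hdac2, coloured by role, with open points where the adjusted p was not under 0.05. Mcpt1 (-1.94), Mcpt2 (-1.70), Fcer1a (-1.02) and Cpa3 (-0.66) stand apart, and the intervals of both Kit probe sets span 0.

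Over all 14 probe sets, 5 were called lower, 0 higher and 9 not, where 2.08% of all probe sets were called lower. At an unadjusted p under 0.05, 7 were lower and 0 higher, against 8.1% lower and 8.28% higher of all probe sets. The median difference was -0.17 against 0.0041 over all probe sets, and 13 of the 14 differences were below 0. By each gene's probe set of highest mean, 4 of 10 genes were called lower, and 0 higher, where 2.65% of all genes were called lower and 2.44% higher, 5.09% in all. The 10 genes were chosen with earlier results of these data known, so these counts describe them and are not an independent test. Most of these signals were low. A list of 20 genes of other tissues, such as lens, retina, testis and pituitary, of which 19 had a probe set, had mean signals between 3.11 and 6.76 with a median of 4.64, and 0 of them were called in either direction. Control means of 10 of the 14 mast cell probe sets, Cpa3 and Fcer1a among them, lay below the 90th percentile of that list (6.62). In HDAC2 KO, Mcpt1 at 6.89 lay just above that level, where RMA compresses differences. In a test of 1 probe set per gene, limited to means at or above the 40th percentile of genes (6.66), 3 of the 10 genes, Mcpt1, Mcpt2 and Kit, were retained, and Mcpt1 and Mcpt2 were called (8.2% of the 10916 genes tested were called lower).

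Genes of granules and of protease families outside the 10 were set beside all genes, of which 2.65% were called lower and 2.44% higher. Srgn, the core protein of serglycin, the proteoglycan to which granule proteases bind, was called 1.49-fold lower, from 10.62 ± 0.011 (SD, n = 3) to 10.04 ± 0.033 (limma adjusted p = 0.000622), and other leukocytes also make it. It was the 1 called of 7 granule genes. At an unadjusted p under 0.05, 2 of the 7 were lower and 0 higher, against 8.1% and 8.28% of all probe sets. The rest of the 7 included Ndst2, a heparin-sulfating enzyme (difference -0.03), and Slc18a2, the vesicular amine transporter (0.03). Of 11 relatives of the proteases, among them the basophil protease gene Mcpt8 (difference 0.12), Ctsg (-0.04) and Gzmb (-0.08), all of which lie in the chromosome 14 group, 0 were called. At an unadjusted p under 0.05 there was 1, the tryptase gene Tpsg1, at 0.14 (SE 0.051, adjusted p = 0.219). Of these 11 genes, 10 lay below the 90th percentile of the genes of other tissues.

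Some signalling and mediator genes were called. Downstream of the IgE receptor, 2 of 14 genes were called lower and 0 higher, where 2.65% of all genes were called lower and 2.44% higher. At an unadjusted p under 0.05, 7 of the 14 were lower and 1 higher, against 8.1% and 8.28% of all probe sets, and their median was -0.16. The called genes were the adaptor gene Lat (difference -0.78, SE 0.11, limma adjusted p = 0.0102) and the kinase gene Fyn (-0.38, SE 0.058, adjusted p = 0.0132). T cells also use both, and the call of Lat was lost without control replicate 1 (adjusted p = 0.05003) and that of Fyn without control replicate 2 or HDAC2 KO replicate 1 or 3 (up to 0.0605). The kinase gene Syk, which epithelium also expresses, differed by 0.10 (adjusted p = 0.362). Among 6 genes of lipid mediator synthesis, Hpgds, the hematopoietic prostaglandin D synthase gene of mast cells and other leukocytes, was called 1.38-fold lower (difference -0.46, SE 0.069, adjusted p = 0.0122). Ptgs2, which encodes the inducible cyclooxygenase, was called higher by 0.33 (SE 0.064, adjusted p = 0.0378), a call lost when any single array was left out (adjusted p up to 0.132) and with the replicate block (0.0908). The leukotriene C4 synthase gene Ltc4s differed by -0.17 (adjusted p = 0.223). Of 9 surface proteins, Cd34 alone was called (difference -0.29, adjusted p = 0.0283), and this call was lost when any single array was left out (up to 0.119) and with the replicate block (0.0642). It also marks endothelium.

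None of the 10 transcription factor genes of the lineage was called, where 5.09% of all genes were called in either direction. At an unadjusted p under 0.05, 4 of the 10 were lower and 1 higher, against 8.1% and 8.28% of all probe sets. Gata2, needed for mast cell formation, was 7.35 ± 0.088 (SD, n = 3) in control and 7.26 ± 0.072 in HDAC2 KO (limma adjusted p = 0.595). Mitf differed by 0.23 (SE 0.069, adjusted p = 0.148) and Runx1 by -0.24 (SE 0.063, adjusted p = 0.0974).

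Among 21 genes of mast cell growth and recruitment, 7 were lower and 2 higher at an unadjusted p under 0.05, against 8.1% and 8.28% of all probe sets. After adjustment 4 were called lower and 0 higher, where 2.65% of all genes were called lower, and the list's median was -0.08. Kitl encodes stem cell factor, the ligand of KIT. It was 11.92 ± 0.045 (SD, n = 3) in control and 11.64 ± 0.053 in HDAC2 KO, 1.21-fold lower (limma adjusted p = 0.0295), and leaving out any array except HDAC2 KO replicate 3 ended the call (adjusted p up to 0.135), as did the replicate block (0.0968). The others act in the entry of mast cell progenitors and of lymphocytes into the gut: the endothelial addressin gene Madcam1 (difference -0.61, SE 0.061, adjusted p = 0.00196), the adhesion molecule gene Vcam1 (-0.47, SE 0.071, adjusted p = 0.0130) and the integrin beta 7 gene Itgb7 (-0.37, SE 0.061, adjusted p = 0.0192). Vcam1 lost its call without control replicate 2 or 3 and with the replicate block (0.0701). Itgb7 lost it without control replicate 2 or 3 or HDAC2 KO replicate 1 or 3 (up to 0.0904) and with the replicate block (0.0559). The partner integrin gene Itga4 missed the threshold at -0.27 (adjusted p = 0.0544). Transforming growth factor beta, which induces Mcpt1 in cultured mast cells, and its activating integrin gave values of -0.02 for Tgfb1 (SE 0.082, adjusted p = 0.956) and 0.15 for Itgb6 (SE 0.058, adjusted p = 0.245). The cytokine gene Il9, a mast cell growth factor, differed by 0.07 (adjusted p = 0.646).

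**Figure D4:**
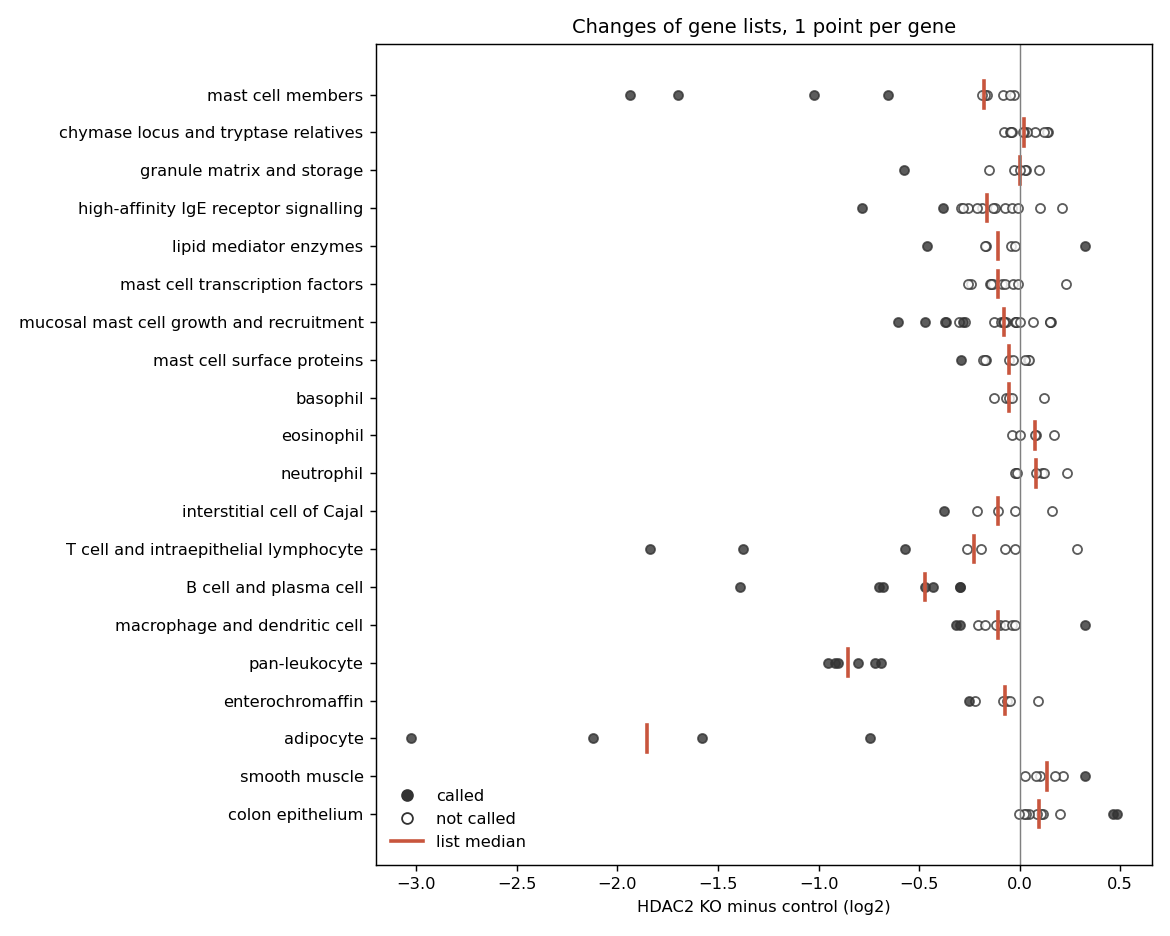
Difference HDAC2 KO minus control (log2, horizontal axis) of the mast cell genes and of each listed gene set, 1 point per gene by its probe set of highest mean, filled where called, with a red bar at the list's median. All 6 pan-leukocyte, all 7 B cell and all 4 adipocyte genes were called lower, and the medians of the colon epithelium and smooth muscle lists lie above 0.

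Markers of several other leukocytes were also lower, where 2.65% of all genes were called lower and 2.44% higher. All 6 pan-leukocyte genes were called lower, with a median of -0.85 and a summed signal of 12.45 to 12.49 in control and 11.61 to 11.68 in HDAC2 KO. Ptprc, which encodes CD45, was 1.74-fold lower (limma adjusted p = 0.000356). All 7 B cell and plasma cell genes were called lower (median -0.47, summed signal 13.53 to 13.55 against 13.02 to 13.18), with Cd79a, Pou2af1 and Jchain losing their calls with the replicate block (adjusted p 0.0813 to 0.112) and in at least 5 of the 6 fits that left out an array. Of 8 T cell genes 3 were called lower (summed signal 10.09 to 10.17 against 9.51 to 9.64), led by Cd3g at -1.84, while Cd8a differed by -0.02. Of these 8 genes, 4 were lower and 1 higher at an unadjusted p under 0.05, against 8.1% and 8.28% of all probe sets. The higher gene, Gzma, changed by 0.29 without overlap of the groups and was not called. Of 10 macrophage and dendritic cell genes 2 were called lower, Lyz2 and Csf1r, and 1 higher, Cd14 (summed signal 13.01 to 13.07 against 12.98 to 13.03), and each lost its call without control replicate 1 or 2 or HDAC2 KO replicate 1. Lyz2 and Csf1r also lost it with the replicate block (adjusted p = 0.0528 and 0.0632). The 5 basophil genes (summed signal 8.31 to 8.39 against 8.24 to 8.35), the 5 eosinophil genes (7.36 to 7.40 against 7.38 to 7.44) and the 7 neutrophil genes (8.19 to 8.22 against 8.21 to 8.30) had 0 calls each. At an unadjusted p under 0.05, 2 of the 7 neutrophil genes were higher, where 8.28% of all probe sets were, and none of the rest in these lists differed. Of the basophil, eosinophil and neutrophil genes, 4 of 5, 5 of 5 and 7 of 7 lay below the 6.62 level, which limits what these counts show. Non-leukocyte markers moved too: all 4 adipocyte genes were called lower (summed signal 12.04 to 12.12 against 9.79 to 9.92), and 2 of 10 colon epithelium genes (16.80 to 16.81 against 16.91 to 16.94) and 1 of 6 smooth muscle genes (15.39 to 15.41 against 15.52 to 15.55) were called higher, the last, Cnn1, not without control replicate 1 (adjusted p = 0.0536). Of 6 genes of enterochromaffin cells, 1 was called lower, Ddc (difference -0.25, adjusted p = 0.0363), a call lost when any single array was left out (up to 0.150) and with the replicate block (0.101). The part of these shifts in the mast cell results was not tested.

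The called mast cell genes were also set against Ptprc within each array. This comparison of 4 called genes was chosen after their values were seen. Mcpt1 minus Ptprc was -1.64, -1.69 and -1.73 in control and -2.74, -2.84 and -2.88 in HDAC2 KO, so Mcpt1 fell by 1.13 more than Ptprc on the log2 scale. Mcpt2 minus Ptprc changed by -0.90, again without overlap (exact permutation p = 0.1 for each, 0.2 adjusted over the 4 pairs). Cpa3 minus Ptprc changed by 0.15 (exact permutation p = 0.3, adjusted 0.4) and Fcer1a minus Ptprc by -0.22 (exact permutation p = 0.4, adjusted 0.4). For these latter genes the groups overlapped, and their signals lay in the range of the genes of other tissues. No gene of another leukocyte was set against Ptprc in this way. Falls larger than that of Ptprc (-0.80) were not limited to mast cell genes, with Cd3g at -1.84 and the immunoglobulin gene Ighm at -1.39, while Cd8a (-0.02) fell less.

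Profiles over the 6 arrays were compared among 18193 genes by Euclidean distance of signal centred on the control mean. On this scale the distance mostly reflects the size of the change between groups, so near genes are those with falls of similar size. Whether they vary together within a group was not tested. Genes named by clone or predicted-gene identifiers were passed over. The nearest remaining genes to Mcpt1 were Cd3g (distance 0.280), the adipocyte lipid carrier gene Fabp4 (0.366), the heat shock gene Hspa1a (0.380), the amylase gene Amy1 (0.399) and Mcpt2 (0.502). For Mcpt2 they were the adipokine gene Retn (0.291), the macrophage scavenger receptor gene Marco (0.307), Hspa1a (0.341), Cd3g (0.388) and Amy1 (0.403). Their differences ranged from -2.12 for Fabp4 to -1.58 for Retn.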

How the data were processed

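The deposited log2 signals came from RMA, which the submitters' processing notes name without a version. RMA subtracts a modelled background, gives all arrays 1 distribution and summarises probes, which compresses low signals and hides changes in total RNA. The log2 scale was read from the values (2.39 to 14.6). Precision is limited by the number of arrays, 3 in each group. Of 45101 probe sets, 64 array controls were left out. A platform annotation of 2016 gave 34945 probe sets 1 symbol, 932 several and 9160 none.

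HDAC2 KO was compared with control over 45037 probe sets with limma 3.58.1 (R 4.3.3), using lmFit and eBayes with group as the only term and Benjamini-Hochberg adjustment. Adjusted p for single genes are from this limma fit, n = 3 per group, which was tested on simulated data. It used no signal filter, since a filter would drop most mast cell genes. Lists (7 of mast cell pathways, 12 of cell type markers) use each gene's probe set of highest mean, and a summed signal is the log2 of summed linear signals. The shares at an unadjusted p are over all probe sets, whereas the lists count genes, so the background is unlike. At an adjusted p under 0.05, 5.09% of genes were called against 3.8% of probe sets. The members and lists were chosen with earlier results of these data known. Named from a list were up to 4 genes of smallest p and its calls where few. Mcpt8, Ctsg, Gzmb, Ndst2, Slc18a2, Syk, Fcer1g, Gata2, Tgfb1, Itgb6, Il9, Itga4, Cd8a, Xist and Eif2s3y were named for their roles after their values were seen.

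The pairing by replicate number is read from correlations, not from a label. Deviations from group means had correlations of 0.20 to 0.34 for arrays of the same number over the 10916 genes above the filter, against -0.37 to 0.18 for other pairs. Over all probe sets the correlations were -0.0071 to 0.11 for the same number, which lay within the -0.19 to 0.15 of other pairs.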

Additional observations from a re-analysis of the deposited data

How the results depend on the processing

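Mcpt1, Mcpt2, Cpa3 and Fcer1a were called lower in every alternative in which their probe set was tested, with differences of -2.003 to -1.87, -1.77 to -1.65, -0.73 to -0.61 and -1.11 to -0.91, and highest adjusted p of 0.00111, 0.00217, 0.0345 and 0.0262. Fewer mast cell probe sets were called with filters that test fewer of them: 3 of 7 with the 40th percentile of probe sets and 2 of 3 with 1 probe set per gene. The count was 4 or 5 with a single array left out and 4 with the replicate block, against 5. The total of 1712 called probe sets moved to 3354 with robust variances and an intensity trend, 929 with the replicate block, 671 at an adjusted p under 0.01, 481 with a fold of at least 1.5, and 779 to 1466 with a single array left out. Some of these settings use fewer arrays or stricter thresholds, and the cause of the moves was not tested. Hdac2 1445684_s_at passed with the 40th percentile filter on probe sets (adjusted p = 0.0270, difference -0.21), with 1 probe set per gene (-0.21) and in the fit with robust variances and a trend (0.00300, -0.21), and Hdac2 1439704_at turned to 0.031 without control replicate 1 and 0.065 without HDAC2 KO replicate 3. Uncalled values near 0 also changed sign: Hdc 1451796_s_at (0.038) and Tpsb2 1451802_at (0.030) without control replicate 3, Tpsb2 1451802_at (0.0027) and Kit 1452514_a_at (0.0089) without HDAC2 KO replicate 2, and Kit (0.028) with the mean of its probe sets. Without single arrays these ranged from -0.11 to 0.038 (Hdc), -0.063 to 0.030 (Tpsb2) and -0.064 to 0.0089 (Kit). Ms4a2 was called also with the mean of its probe sets (-0.24, adjusted p = 0.0327), while 1443264_at was not in the robust fit with a trend (0.0615). The 8 mucosal against connective-tissue pairs kept their direction in all 72 values under alternatives, from -1.998 to -0.91. Paired by replicate number, 3 pairs cannot give an exact p under 0.25. Of the 14 mast cell probe sets, the replicate block changed the call of Ms4a2 1443264_at only. Low signal limits Ms4a2, Fcer1a, Mcpt4, Cma1, Cpa3, Tpsb2 and Hdc.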
